A study of Mus musculus with 6 samples.

Results

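The opioid peptide system was followed here through 8 genes of the mouse preoptic area, the part of the hypothalamus that sets body temperature. They are the 4 peptide precursor genes Pnoc, Penk, Pdyn and Pomc and the 4 receptor genes Oprl1, Oprm1, Oprk1 and Oprd1. Members were chosen by gene symbol, and all 8 were found among the 27884 genes of the deposited table. All 8 also passed the low-count filter, which left 18640 genes for testing.

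All libraries came from NuTRAP::Pnoc-Cre females of 17 to 18 weeks, so that every group carries the Cre driver and the tagged ribosomes alike. NuTRAP is a Cre-dependent reporter that puts EGFP on a ribosomal protein, and Pnoc-Cre switches it on in cells in which the driver is or has been active. The 3 IP libraries hold RNA pulled down with the tagged ribosomes, and the 3 input libraries hold the total RNA of the same tissue. Each replicate was a pool of punches from 3 animals, and an IP library shares its pool with the input library of the same number. No IP from mice without Cre was analysed here, so the RNA that sticks to the beads without a tag is not measured. All animals were of 1 sex and of 1 narrow age range, and no treatment was compared.

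Opioid peptides are cut from larger precursor proteins inside secretory vesicles and act on receptors that couple to inhibitory G proteins. These lower cyclic AMP, open inwardly rectifying potassium channels and close presynaptic calcium channels. Pnoc gives nociceptin, the ligand of the receptor encoded by Oprl1. Penk gives the enkephalins, which bind the delta and mu receptors (Oprd1 and Oprm1), Pdyn gives the dynorphins, which bind the kappa receptor (Oprk1), and Pomc gives beta-endorphin beside melanocortins and ACTH. In the preoptic area these peptides are known from neurons that act on heat production, reproduction and feeding.

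What unites the 4 precursors is a short stretch of coding sequence, shown here because the genes were grouped by their peptide family. The stretch codes for tyrosine, glycine, glycine and phenylalanine, with phenylalanine in place of the tyrosine in nociceptin, and follows 2 codons for basic residues at which the precursor is cut. It was searched in the translated reading frame of 21770 canonical protein-coding transcripts (GENCODE M39, build mm39), and 5 genes held it after 2 basic codons. These were the 4 precursors and Ppm1k, a phosphatase gene of mitochondria that is no opioid precursor. Without the basic codons, 0.808% of the transcripts held the stretch. Penk held 7 copies, Pdyn 3, and Pnoc and Pomc 1 each. Each line below gives 2 codons before the stretch, the stretch itself in capitals, and the codons up to the 17th residue of the peptide, which is the length of nociceptin and of dynorphin A.
Pnoc, nociceptin (chr14:65642291-65642347, minus strand, exon 3 of 4): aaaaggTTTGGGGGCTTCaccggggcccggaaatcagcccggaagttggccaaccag
Pdyn, dynorphin A (chr2:129530014-129530070, minus strand, exon 4 of 4): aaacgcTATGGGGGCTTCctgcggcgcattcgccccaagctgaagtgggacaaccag
Pdyn, dynorphin B (chr2:129529957-129530013, minus strand, exon 4 of 4): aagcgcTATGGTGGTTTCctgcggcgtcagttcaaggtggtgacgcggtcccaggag
Penk, first Met-enkephalin (chr4:4134298-4134354, minus strand, exon 2 of 2): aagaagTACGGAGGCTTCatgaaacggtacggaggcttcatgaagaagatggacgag
Penk, Leu-enkephalin (chr4:4133905-4133961, minus strand, exon 2 of 2): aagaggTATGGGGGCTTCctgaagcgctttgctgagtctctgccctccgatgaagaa
Pomc, beta-endorphin (chr12:4010367-4010423, plus strand, exon 3 of 3): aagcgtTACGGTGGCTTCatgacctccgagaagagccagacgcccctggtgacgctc

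Of the 12 capital bases, the dynorphin A copy and the Leu-enkephalin copy, which are alike there, each equalled nociceptin at 11. In the 39 bases that follow, nociceptin and dynorphin A were equal at 19, or 48.7%, the highest share among the copies shown. For the Leu-enkephalin copy that share was 23.1%. The dynorphin B copy shared 35.9% of those bases with nociceptin, and the beta-endorphin copy 30.8%. Gene counts sum the reads of a whole transcript, so the libraries measure precursor transcripts and not the single peptides they hold.

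In the comparison of IP with input, 2 of the 8 genes passed the threshold as higher in IP, Pnoc and Oprl1, and 0 passed as lower. The test was edgeR's quasi-likelihood test at a Benjamini-Hochberg adjusted p under 0.05. At an unadjusted p under 0.05, 1 gene was lower (Oprk1), and DESeq2 called 2 higher and 0 lower. In the authors' deposited table the same 2 genes had an adjusted p under 0.05, Pnoc at a log2 fold change of 2.08 and Oprl1 at 0.53. Over all 18640 genes tested edgeR called 30.0% (12.9% higher, 17.1% lower) and DESeq2 called 36.1% (16.4% higher, 19.7% lower), so that 2 and 0 of 8 do not set the 8 genes apart from the background. The median log2 fold change was 0.29 for the 4 precursors and -0.88 for the 4 receptors, against -0.07 for all genes tested. With the tissue pool as a block, again 2 of the 8 genes were higher and 0 lower, against 34.6% of all genes called (15.2% higher, 19.4% lower). A correction for gene length beside the block gave 2 higher and 1 lower (Penk), against 36.1% of all genes called (17.9% higher, 18.3% lower). IP and input did not overlap for 3 of the 8 genes, Pnoc and Oprl1 being above in IP and Oprk1 below. Among all genes tested they did not overlap for 47.7%, with IP above for 21.7% and below for 26.0%.

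**Figure D1:**
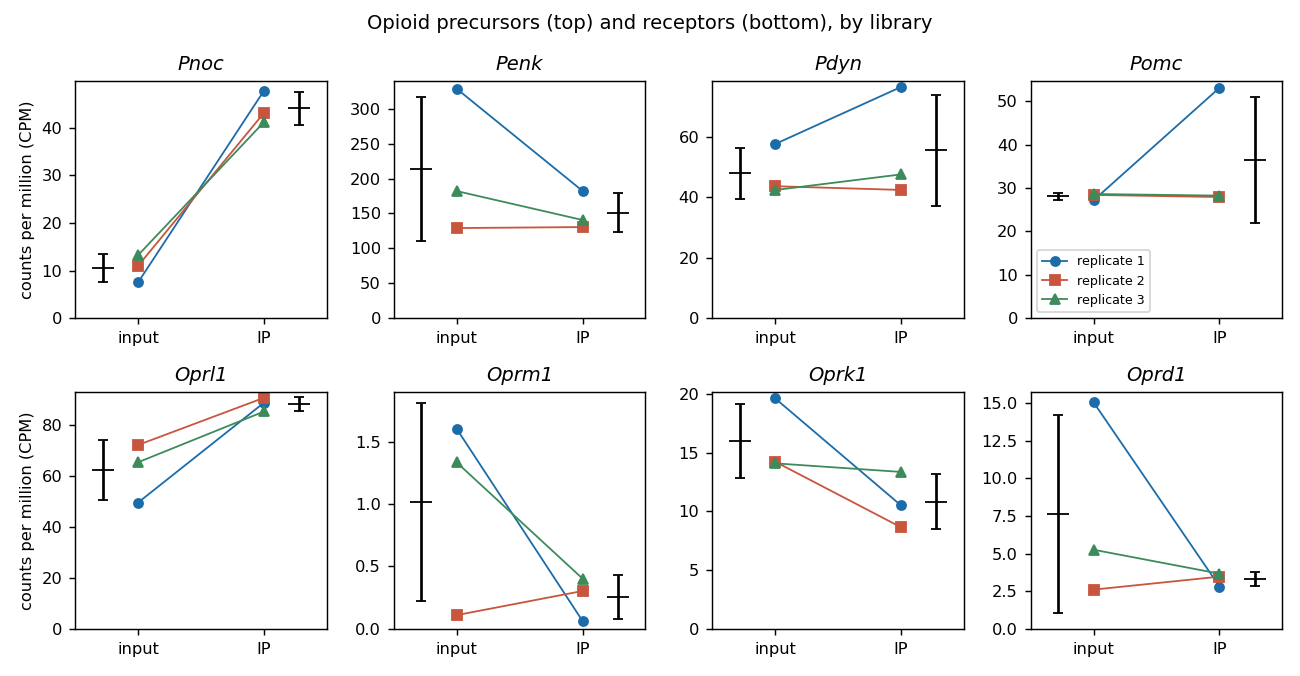
Read counts scaled to a common library total (CPM, linear axes from 0) of the 4 precursors (top) and 4 receptors (bottom) in input and IP; lines join libraries of the same tissue pool, and horizontal marks with bars give the mean and SD of 3 libraries. Pnoc and Oprl1 rise in all 3 pools, while replicate 1 stands highest in input for Penk, Oprk1, Oprd1 and Oprm1 and highest in IP for Pdyn and Pomc.

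Total counts per library ran from 48204567 to 53056642, so depth was alike. As a check of the label, the summed level of 10 pan-neuronal markers was 10817 to 12483 CPM in IP against 7760 to 9249 CPM in input. Snap25 alone averaged 4664 CPM in IP. Of the 10, 4 passed as higher and 0 as lower (edgeR), while Map2 (-0.56), Elavl2 (-0.08) and Rbfox3 (-0.06) had negative log2 fold changes. With the tissue pool as a block, 5 were higher and Map2 was lower (adjusted p = 0.012, edgeR). Summed astrocyte markers (8 genes) stood at 821 to 995 CPM in IP against 3119 to 3674 CPM in input, oligodendrocyte markers (8 genes) at 673 to 987 against 4998 to 6364 CPM, and microglial markers (8 genes) at 16.1 to 28.9 against 162 to 205 CPM. None of these glial markers was at 0 in any library. Markers of GABAergic neurons, the class to which many Pnoc neurons belong, summed over 8 genes to 2095 to 3051 CPM in IP and 1608 to 1730 CPM in input, and 4 of the 8 rose. The input pools differed in striatal markers: 8 genes of striatal projection neurons summed to 1582, 357 and 628 CPM in input replicates 1, 2 and 3, and to 426, 192 and 259 CPM in IP. Input replicate 1 also stood apart in 6 markers of cortical excitatory neurons, which summed to 616, 127 and 72.6 CPM in input and to 90.4, 213 and 95.3 CPM in IP. None of the striatal or cortical markers was at 0 in any library. In tissue libraries, fewer cells of a type and less RNA per cell cannot be told apart.

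Pnoc (ENSMUSG00000045731, chr14:65638122-65662921, minus strand), the nociceptin precursor, was the gene with the clear rise. Its libraries held 47.7, 43.1 and 41.1 CPM in IP replicates 1, 2 and 3 and 7.51, 11.0 and 13.2 CPM in input. Every IP library lay far above every input library, and the spread within IP was small. In FPKM (fragments per kilobase of gene length and per depth unit, comparable between genes), the highest IP library was 1.15 times the lowest, against 1.79 times in input. IP over input, Pnoc had a log2 fold change of 2.06 ± 0.22 (SE, n = 3 against 3), or 4.16-fold (edgeR, adjusted p = 0.00047). Of 14939 protein-coding genes tested, 39 had a larger log2 fold change. By FPKM, Pnoc exceeded 52.0% of these genes in input and 81.2% in IP. Since the Cre driver is that of Pnoc, this gene checks the pull-down and is no independent finding about the tagged cells.

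The size of the Pnoc rise differed between pools. Within a pool, the log2 ratio of IP to input was 2.67, 1.97 and 1.64 in replicates 1, 2 and 3. The differences came mainly from the input side, where replicate 1, the pool with the highest striatal marker level, had the lowest Pnoc level and replicate 2, with the lowest striatal level, lay between the others. Whether the striatal share bears on the Pnoc ratio was not tested. Without both libraries of replicate 1 the log2 fold change was 1.80 ± 0.18 (SE, adjusted p = 0.00021, edgeR).

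Penk (ENSMUSG00000045573, chr4:4133531-4138819, minus strand), the enkephalin precursor, had the highest mean level per length of the 8 genes in both kinds of library and did not pass the test. It had 182, 130 and 141 CPM in IP and 329, 129 and 182 CPM in input. The groups overlapped, and input replicate 1 stood above the other 5 libraries. The log2 fold change was -0.50 ± 0.31 (SE, adjusted p = 0.27, edgeR), and the pools gave log2 ratios of -0.85, 0.02 and -0.37. The order of the input pools, replicate 1 above 3 above 2, was that of the summed striatal markers. A shared order over 3 pools can arise by chance. The striatum is known for strong Penk expression. The cortical marker sum was highest in input replicate 1 as well. The part of either marker level in the Penk value was not tested. Of the 3486 exon bases of Penk, 390 are shared with A830012C17Rik on the other strand. Without input replicate 1 the log2 fold change was -0.04 ± 0.19 (SE). With a correction for gene length and the replicate as a block, Penk was called lower, at -0.56 ± 0.18 (SE, adjusted p = 0.035, edgeR).

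Pdyn and Pomc showed 1 high IP library each. Pdyn (ENSMUSG00000027400, chr2:129528485-129541764, minus strand), the dynorphin precursor, had 76.6, 42.5 and 47.6 CPM in IP and 57.7, 43.7 and 42.4 CPM in input. Replicate 1 was the highest of its group on both sides, and the groups overlapped. Pdyn had a log2 fold change of 0.21 ± 0.24 (SE, adjusted p = 0.54, edgeR), and it turned to -0.08 without IP replicate 1. Pomc (ENSMUSG00000020660, chr12:4004951-4010642, plus strand), the precursor of beta-endorphin, had 53.1, 27.9 and 28.2 CPM in IP and 27.1, 28.4 and 28.6 CPM in input. The groups overlapped: 5 libraries lay between 27.1 and 28.6 CPM, and IP replicate 1 alone stood above them. Pomc had a log2 fold change of 0.38 ± 0.25 (SE, adjusted p = 0.29, edgeR), and it was -0.02 without both libraries of replicate 1.

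Markers of the arcuate nucleus, where the Pomc neurons of the hypothalamus lie, had their highest sum in that library, but the single markers differed. Of 6 such genes listed (Agrp, Kiss1, Tbx3, Ghrh, Six6 and Prdm12) 5 were in the table, and they summed to 62.3, 34.9 and 31.0 CPM in IP and to 24.9, 19.7 and 21.1 CPM in input. Most of the excess of IP replicate 1 was Prdm12, a transcription factor gene of Pomc neurons, with 23.5, 4.62 and 5.86 CPM in IP. Agrp, the marker of the neighbouring AgRP neurons, was level there at 3.82, 3.97 and 3.57 CPM, and Ghrh nearly so at 16.1, 15.1 and 13.1 CPM. None of the 5 was at 0 in any library, and 1 passed as higher in IP, Ghrh, which encodes growth hormone-releasing hormone, at 1.80 ± 0.37 (SE, adjusted p = 0.0082, edgeR). The part of this marker level in the Pomc and Pdyn values was not tested. Pituitary markers, another source of Pomc, summed to 17.9, 2.60 and 13.1 CPM in IP and 39.7, 7.81 and 64.9 CPM in input, and from 1 to 4 of the 8 were at 0 in each library. That sum was mostly Gh and Prl, the hormone genes of pituitary cells that do not make Pomc. Tbx19, the list's marker of the Pomc-making pituitary cells, had 1.24, 0.35 and 0.081 CPM in IP and 0.64, 0.40 and 0.12 CPM in input, and so was highest in IP replicate 1, as Pomc was. The part of the pituitary markers in the Pomc value was not tested.

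**Figure D2:**
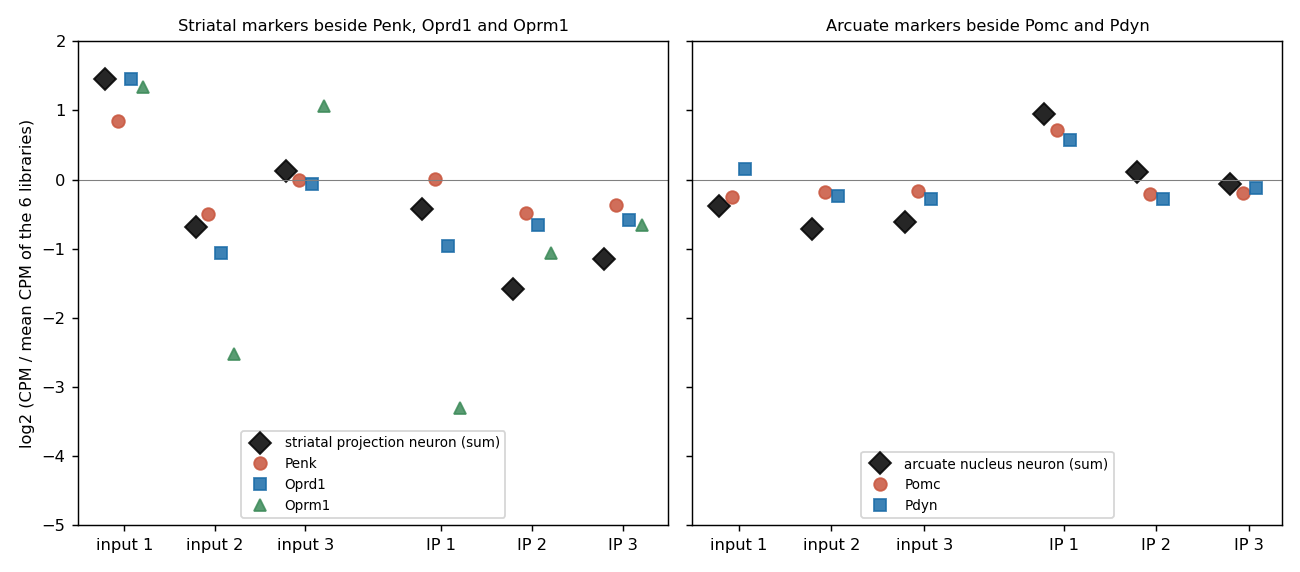
Level of each gene, and of the summed CPM of marker lists, in each library as log2 of its CPM over the mean of the 6 libraries (y axis). In input, the striatal sum, Penk, Oprd1 and Oprm1 are highest in replicate 1 and lowest in replicate 2. Within IP, the striatal sum and Penk are highest in replicate 1, while Oprd1 and Oprm1 are lowest there. The arcuate sum, Pomc and Pdyn are highest in IP replicate 1.

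Oprl1 (ENSMUSG00000027584, chr2:181356809-181362778, plus strand), the nociceptin receptor gene, was higher in IP, but by far less than Pnoc. Its libraries held 88.6, 90.5 and 85.1 CPM in IP and 49.5, 72.0 and 65.2 CPM in input. The 3 IP libraries were closely alike, all above the input libraries, and input replicate 1 was the lowest. On the log2 scale the rise was 0.50 ± 0.16 (SE, n = 3 against 3), or 1.42-fold (edgeR, adjusted p = 0.043). Within pools the log2 ratio was 0.84, 0.33 and 0.38. Among protein-coding genes tested, 2935 of 14939 had a larger log2 fold change than Oprl1, and the summed pan-neuronal markers were also higher in every IP library, with a median log2 fold change of 0.41 over 10 genes.

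The call of Oprl1 sat close to the threshold. It held with the replicate block (0.52 ± 0.15 SE, adjusted p = 0.023, edgeR) and without input replicate 2 (adjusted p = 0.028). It was lost without any other single library or any whole pool, at an adjusted p between 0.055 and 0.21 (edgeR), with log2 fold changes from 0.36 to 0.63. It was also lost with library totals alone as the scaling and with upper-quartile factors.

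Oprk1 (ENSMUSG00000025905, chr1:5658689-5676354, plus strand), the kappa receptor gene, lay lower in IP without passing the test. It had 10.5, 8.65 and 13.4 CPM in IP and 19.6, 14.2 and 14.1 CPM in input. All IP libraries were below all input libraries, though IP replicate 3 came within 1 CPM of input replicates 2 and 3. The log2 fold change was -0.56 ± 0.23 (SE, adjusted p = 0.096, edgeR). It was -0.36 ± 0.26 (SE) without both libraries of replicate 1.

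Oprd1 (ENSMUSG00000050511, chr4:131838037-131871797, minus strand), the delta receptor gene, varied more between input pools than between IP and input. It had 2.81, 3.47 and 3.67 CPM in IP and 15.0, 2.61 and 5.26 CPM in input. The IP libraries were alike, while in FPKM the highest input library was 5.67 times the lowest, and the lowest lay below all 3 IP libraries. The log2 fold change was -1.20 ± 0.56 (SE, adjusted p = 0.14, edgeR). It was -0.24 ± 0.37 (SE) without input replicate 1, and -1.55 ± 0.42 (SE, adjusted p = 0.030, edgeR) without input replicate 2, where it was called lower. The input pools again ranked as their striatal markers did, with the cortical markers also highest in replicate 1. In IP the striatal sum was highest in replicate 1 (426 CPM), where Oprd1 was lowest (2.81 CPM). The part of either marker level in the Oprd1 value was not tested.

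Oprm1 (ENSMUSG00000000766, chr10:6708506-6988198, plus strand), the mu receptor gene, was barely detected. It had 3, 14 and 20 counts in IP and 83, 6 and 69 counts in input, or 0.064, 0.30 and 0.40 CPM against 1.60, 0.11 and 1.33 CPM. The groups overlapped, since input replicate 2 lay within the range of IP. A count of 3 stands for between 0.055 and 0.065 CPM in these libraries, so that IP replicate 1 was at that floor. The log2 fold change was -1.97 ± 1.03 (SE, adjusted p = 0.19, edgeR), so that a difference of this size did not pass at these counts. The input libraries ranked as their striatal markers did here as well, and the cortical markers were highest in replicate 1. In IP the striatal sum was highest in replicate 1 (426 CPM), where Oprm1 was lowest (0.064 CPM). The part of either marker level in the Oprm1 value was not tested. Of its 8037 exon bases 96 are shared with Ipcef1 on the other strand, and reads there can be lost or shared when strand is not used in counting.

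**Figure D3:**
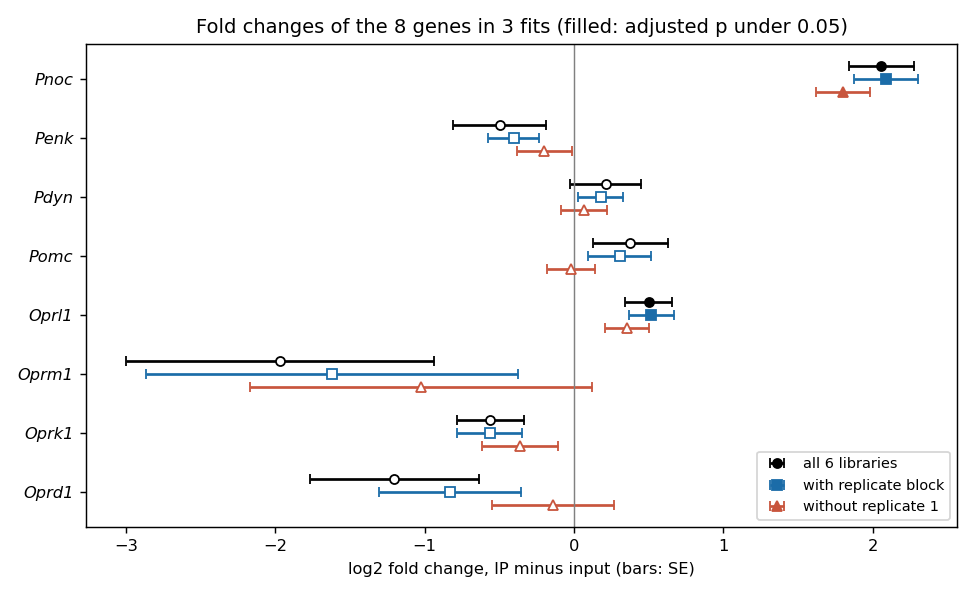
Log2 fold changes of IP over input with SE (x axis) for the 8 genes in 3 edgeR fits, filled where the adjusted p is under 0.05. Pnoc stays near 2 in all 3 fits; Oprl1 is filled with all libraries and with the block but not without replicate 1, and Oprd1 moves from -1.20 to -0.14 without replicate 1.

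Levels of different genes were compared per length, with the deposited FPKM. In IP, Penk led with 92.4 ± 16.2 FPKM (SD, n = 3), followed by Pomc with 27.6 ± 10.7, Oprl1 with 23.5 ± 0.69, Pnoc with 20.4 ± 1.43 and Pdyn with 19.2 ± 6.22 FPKM. The means of Pomc and Oprl1, and those of Pnoc and Pdyn, lay within 1 SD of each other, while Oprl1 exceeded Pnoc in each IP library. The place of Pomc above Oprl1 rested on IP replicate 1 (39.9 against 23.4 FPKM), since Pomc was the lower of the pair in replicates 2 and 3 (21.2 against 24.2 and 21.5 against 22.8 FPKM). Far below stood Oprk1 with 1.18 ± 0.26 and Oprd1 with 0.83 ± 0.12 FPKM, Oprk1 above Oprd1 in every IP library, and Oprm1 with 0.032 ± 0.022 FPKM. In input the order was Penk with 127.5 ± 60.4 FPKM (SD, n = 3), Pomc with 20.9 ± 0.80, Oprl1 with 16.3 ± 3.16, Pdyn with 16.3 ± 2.68, Pnoc with 4.81 ± 1.35, Oprd1 with 1.85 ± 1.57, Oprk1 with 1.71 ± 0.32 and Oprm1 with 0.12 ± 0.10 FPKM. The means of Oprl1 and Pdyn, and those of Oprd1 and Oprk1, lay there within 1 SD of each other.

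Set against its sister precursors, Pnoc took a larger part of the opioid precursor transcripts in IP. Its share in the summed FPKM of the 4 precursors was 11.0%, 14.7% and 13.3% in IP replicates 1, 2 and 3 and 1.42%, 4.22% and 3.98% in input. The shares did not overlap, with a mean of 13.0% ± 1.86 against 3.21% ± 1.55 (SD, n = 3). An exact two-sided permutation test gave p = 0.10, the smallest that 3 against 3 allows. That test, applied to all shares here, did not use the pairing of libraries by pool. Penk stood at 5.04, 4.00 and 4.51 times the FPKM of Pnoc in IP and at 57.7, 15.5 and 18.2 times in input. In IP, too, Penk had the larger level per length, but how much of it came from RNA without a tag is not measured. The share of Penk was 58.2% ± 2.32 in IP against 73.3% ± 8.35 in input (SD, n = 3, exact permutation p = 0.10). Shares of a sum are tied, so a rise of Pnoc, the gene of the Cre driver, lowers the others. The Penk share is therefore no separate result, and Penk itself did not pass (log2 fold change -0.50, adjusted p = 0.27, edgeR). The shares of Pdyn, 11.9% ± 1.23 in IP and 10.1% ± 2.24 in input, and of Pomc, 16.9% ± 2.79 and 13.4% ± 4.75 (SD, n = 3), overlapped between the groups, with exact permutation p = 0.30 and 0.40.

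Among the receptors, Oprl1 made up most of the summed FPKM in every library. Its share was 92.7%, 92.9% and 90.4% in IP and 68.4%, 89.6% and 85.2% in input, so the groups did not overlap, with an exact two-sided permutation p of 0.10. Without replicate 1 the difference of the means was 4.19 percentage points, against 10.9 with all libraries. Oprk1 took 4.66% ± 1.09 in IP and 8.65% ± 2.16 in input (exact permutation p = 0.10), and Oprd1 3.24% ± 0.45 and 9.62% ± 8.66 (SD, n = 3, exact permutation p = 0.30). The 4 exact p-values of the receptor shares and the 4 of the precursor shares cannot go below 0.10 before any adjustment. They leave out the pairing by pool, and within each set the shares are parts of a sum and so not independent. Per length, Oprl1 stood at 1.07 to 1.21 times Pnoc in IP and at 2.84 to 3.78 times in input.

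**Figure D4:**
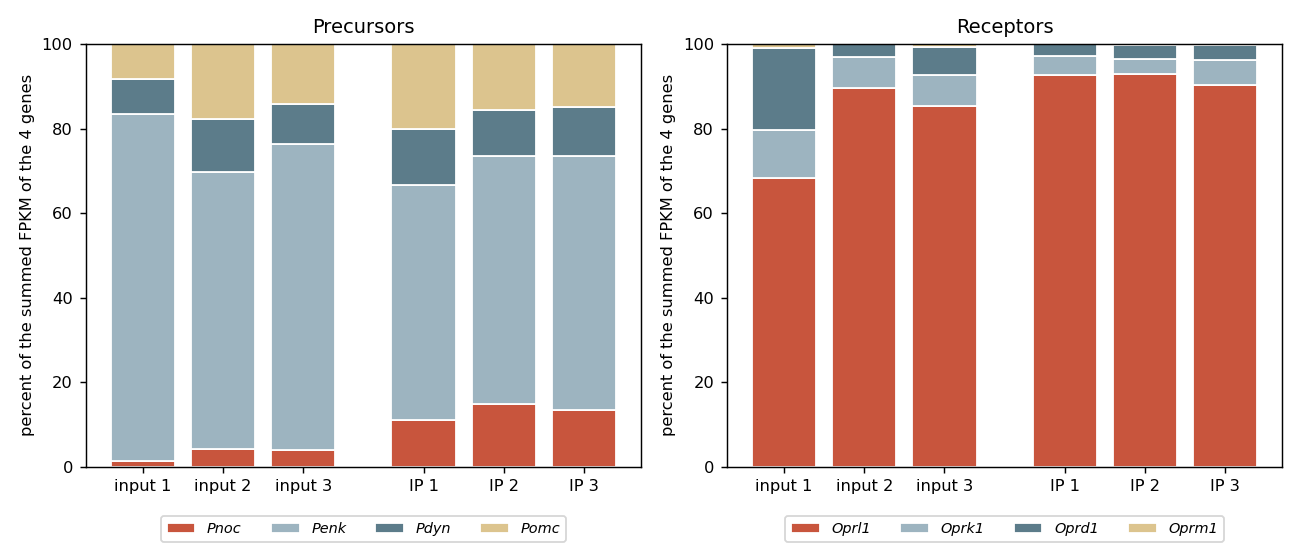
Percent of the summed FPKM (y axis) of the 4 precursors (left) and of the 4 receptors (right) taken by each gene, 1 bar per library. Pnoc takes 11.0% to 14.7% of the precursor sum in IP and 1.42% to 4.22% in input, and Oprl1 at least 90.4% of the receptor sum in IP.

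Genes that make, break down or transmit opioid peptides were read from 6 lists. Their counts are to be read against the 12.9% of all genes tested that were higher and the 17.1% that were lower in edgeR's test, and no list is said to stand apart from that background. Of 9 peptide processing genes 2 rose and 2 fell in edgeR's test, with a median log2 fold change of 0.11. Scg5, the chaperone of the prohormone convertase PC2, averaged 294 ± 9.80 CPM over the IP libraries and 149 ± 26.8 CPM over the input libraries (SD, n = 3) and rose by 0.98 ± 0.15 (SE, adjusted p = 0.0023). Pcsk1n, whose product inhibits the convertase PC1, rose by 0.50 ± 0.14 (SE). The convertase gene Pcsk1 stood at -0.52 ± 0.16 and the carboxypeptidase gene Cpd at -0.65 ± 0.14 (SE), both lower. Without both libraries of replicate 3 none of these 4 passed. That fit called few genes over the whole table. Of 18870 genes tested 133 were higher and 742 lower, against 2400 and 3191 of 18640 with all libraries. Calls lost in that fit, here and in the lists below, are to be read beside those counts. Of the 9 fits with libraries left out, Pcsk1 passed in the 1 that lacked input replicate 2, and Pcsk1n in those that lacked input replicate 1, input replicate 2 or the whole of pool 2. With the block 3 fell, the third being the carboxypeptidase gene Cpe (named after its values were seen), at -0.47 ± 0.12 (SE, adjusted p = 0.015, edgeR) against an adjusted p of 0.070 without the block.

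Of 10 peptidases that can cut opioid peptides 1 rose, Dpp3, an enkephalin-degrading dipeptidase, at 0.67 ± 0.16 (SE, adjusted p = 0.015, edgeR). Dpp3 did not pass when IP replicate 2, input replicate 3 or the whole of pool 2 or 3 was left out. Peptidases that fell numbered 0 in edgeR's test, against 2 before adjustment at p under 0.05 and 1 in DESeq2, and the list median was -0.19. With the block, 1 was lower, Mme, which encodes neprilysin, at -0.73 (adjusted p = 0.015, edgeR). Mme was picked out after its values were seen.

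Of 13 subunits of inhibitory G proteins 4 rose and 2 fell, with a median of -0.07, next to that of all genes. Those higher were Gnb2 at 0.64 ± 0.11, Gng4 at 0.84 ± 0.19, Gng3 at 0.88 ± 0.20 and, named after its value was seen, Gnaz at 0.57 ± 0.13 (SE). Gnai3 fell by 0.76 ± 0.13 and Gng7, a subunit gene known from the striatum, by 1.38 ± 0.43 (SE). Without both libraries of replicate 3, the fit with few calls over the whole table, none of the 6 passed. Gnb2 then stood at 0.72, Gng4 at 0.86, Gng3 at 0.81, Gnai3 at -0.83 and Gng7 at -1.45. Gng3 also lost its call without IP replicate 3 or input replicate 3, and Gng7 passed in 3 of the 9 fits with libraries left out, those that lacked IP replicate 1, input replicate 2 or the whole of pool 1. Without input replicate 1 Gng7 stood at -0.79 (adjusted p = 0.10, edgeR), and in DESeq2 it did not pass (adjusted p = 0.061). With the tissue pool as a block it was called at -1.30 ± 0.15 (SE, adjusted p = 0.00013, edgeR). The striatal marker sum was lower in each IP library than in the input of its pool, and its part in the Gng7 value was not tested.

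Of 13 effectors, which are inwardly rectifying potassium channels, presynaptic calcium channels and adenylyl cyclases, 2 fell and 0 rose in edgeR's test. Before adjustment 1 effector was higher and 4 were lower at p under 0.05, and DESeq2 called 1 higher and 3 lower. The 2 that fell in edgeR's test were the cyclase genes Adcy9 at -2.60 ± 0.58 and Adcy3 at -1.07 ± 0.30 (SE). The list median was -0.06. Without input replicate 1 Adcy9 stood at -1.55 (adjusted p = 0.0093, edgeR), so that this library moved its value by more than 1.5 times, and without both libraries of replicate 1 at -1.56. Neither passed without IP replicate 3 or without both libraries of replicate 3, and Adcy3 also did not without IP replicate 2 or input replicate 1 or 3. Kcnj9, a potassium channel subunit picked out after its values were seen, stood at 0.77 ± 0.27 (SE, adjusted p = 0.060, edgeR) and was called with the block (0.73, adjusted p = 0.0065). The block gave 3 lower genes, the added one being the channel subunit gene Kcnj6 (likewise named after its values were seen), at -1.38 ± 0.49 (SE, adjusted p = 0.0495, edgeR).

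Of 14 genes of receptor desensitisation and RGS proteins, which shorten G protein signals, 3 rose and 2 fell, with a median of 0.10. The kinase genes Grk6 and Grk2 rose by 0.64 ± 0.13 and 0.44 ± 0.11, and Rgs17 by 0.50 ± 0.14 (SE). Rgs20 fell by 0.89 ± 0.21 and Rgs9, which is also 1 of the 8 striatal markers, by 1.37 ± 0.40 (SE). Without both libraries of replicate 3, the fit with few calls over the whole table, none of the 5 passed. With library totals alone Grk6 was the 1 of the 3 risers that passed. Without IP replicate 2 or without IP replicate 3, Grk2, Rgs17, Rgs20 and Rgs9 did not pass. Without input replicate 3, Grk2, Rgs17 and Rgs9 did not, nor did Grk2 without IP replicate 1 or Rgs9 without input replicate 1. When the whole of pool 2 was left out, Grk6 was the 1 of the 5 that passed. Of 4 genes named for opioids outside the receptor family 0 passed in either direction in edgeR's test, 0 before adjustment at p under 0.05, and 0 in DESeq2. Their most abundant members were Ogfrl1 at 0.53 ± 0.25 and Opcml at 0.15 ± 0.17 (SE), and Ogfrl1 passed with the block (0.48, adjusted p = 0.042, edgeR) and without IP replicate 1 or both libraries of replicate 1.

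**Figure D5:**
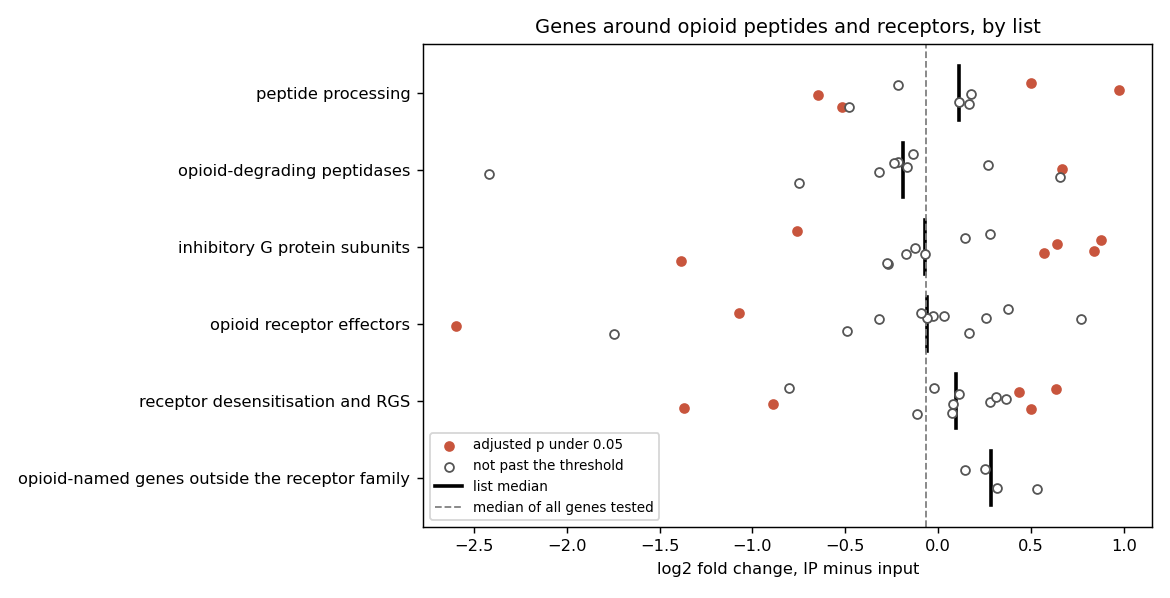
Log2 fold change of IP over input (x axis) of each gene in 6 lists, filled where the adjusted p is under 0.05; vertical bars give list medians and the dashed line the median of all genes tested. List medians lie between -0.19 and 0.28, near the -0.07 of all genes.

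The genes whose profile over the 6 libraries was most like that of Pnoc were Ndufa4, Coprs, Atn1, Mrpl20 and Coq7. Likeness was the root mean square difference of log2 CPM after each gene was centred on its own mean, taken over 10118 protein-coding genes with a mean of at least 3 log2 CPM. The difference ran from 0.22 for Ndufa4 to 0.26 for Coq7. Their log2 fold changes were 1.59 ± 0.20 to 1.75 ± 0.28 (SE), all below that of Pnoc. With 6 libraries in 2 kinds, the measure mostly finds genes with a similar difference between IP and input.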

How the data were processed

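Total RNA (input) and RNA from EGFP-tagged ribosomes (IP) of the same 3 tissue pools were sequenced as poly(A) libraries with paired 75 bp reads, per the labels' protocols. HISAT2, featureCounts, DESeq2 and build mm39 are named in the submitters' processing notes; versions and the strand setting are not given in the sources used here. The deposited table holds raw read counts per gene, which all tests used. The authors' scaled signal is each count divided by 1 size factor per library, and the deposited FPKM is that value per kilobase of the authors' gene length and per 1 total common to all libraries. Deposited log2 values and p-values are those of the authors' own comparison and are quoted once.

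Counts were tested with edgeR 4.0.16 in R 4.3.3 (TMM factors, filterByExpr, quasi-likelihood test, two-sided, Benjamini-Hochberg over 18640 genes, threshold 0.05), with DESeq2 1.42.0 as an alternative. The test code was tested on simulated counts. CPM are counts over TMM-scaled totals. The 8 genes and all lists were chosen with earlier results of these data known. Named were the 8 genes, per list and direction up to 3 called genes, taken by adjusted p (for a list with no call, its 2 genes of highest mean CPM), and the 5 genes most like Pnoc. Same-numbered libraries come from the same pool per the series' design text, and their deviations from the group means correlated at r = 0.35, 0.20 and 0.15, against -0.31 to 0.16 for libraries of different numbers, so that IP replicate 3 correlated as highly with input replicate 2 as with its own. The pairing rests on the design text. Exon overlaps and sequences were read from GENCODE M39. Total counts of 48204567 to 53056642 make 3 counts equal to 0.055 to 0.065 CPM. Intervals and floors of that kind cover counting error only. The p-values of the main edgeR test rest on the spread between libraries within IP and within input, and leave out the pairing by pool. Those of the fits with the replicate block take out differences between pools.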

Additional observations from a re-analysis of the deposited data

How the results depend on the processing

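Pnoc kept its direction and its call in each of the 17 alternatives (edgeR with other factors, filters, the replicate block or libraries left out, and DESeq2). With upper-quartile factors the Oprl1 log2 fold change was 0.49 and with library totals alone 0.40, both without a call, so that 1 of the 8 genes was higher in each. Library totals alone move the median of all genes by -0.11. The share of all genes called is not given here for either way of scaling, so the count of 1 was not set against a background. With the replicate block no call of the 8 genes changed (Pnoc 2.09, Oprl1 0.52), and with the block and a gene length correction Penk was called lower at -0.56, so that 1 of the 8 genes was lower.

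Among the lists, library totals alone gave 1 peptide processing gene higher, 1 peptidase lower and 1 desensitisation gene higher. DESeq2 gave 1 peptidase lower, 1 G protein subunit lower, 1 effector higher and 3 effectors lower. Without a low-count filter 1 peptide processing gene was lower and 1 effector higher. The share of all genes called is not given here for library totals alone or for the fit without a low-count filter. Library totals alone also lower the median of all genes. The list counts of those fits were therefore not set against a background and are no result about the lists. The replicate block gave 3 peptide processing genes and 3 effectors lower, 1 peptidase lower, 1 effector higher and 1 opioid-named gene higher. With the block and the length correction 3 peptide processing genes, 5 G protein subunits, 1 effector, 5 desensitisation genes and 2 opioid-named genes were higher, and 3 peptide processing genes lower.

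Leaving out 1 library or 1 pool gave log2 fold changes of 1.80 to 2.30 for Pnoc, 0.36 to 0.66 for Oprl1, -0.70 to -0.04 for Penk, -0.085 to 0.38 for Pdyn, -0.022 to 0.58 for Pomc, -0.82 to -0.36 for Oprk1, -1.59 to -0.14 for Oprd1 and -2.60 to -1.02 for Oprm1. Pdyn turned to -0.085 without IP replicate 1 and Pomc to -0.022 without both libraries of replicate 1. From 1 to 2 of the 8 genes were then higher and 0 to 1 lower. Higher counts ranged from 0 to 2 for peptide processing, 0 to 1 for peptidases, 0 to 5 for G proteins, 0 to 1 for effectors, 0 to 3 for desensitisation and 0 to 1 for opioid-named genes. Lower counts ranged from 0 to 2, 0 to 1, 0 to 2, 0 to 3, 0 to 2 and 0 to 0 in that order. Over all genes 133 to 2630 were higher and 742 to 3080 lower, the lowest of both without replicate 3. The Pnoc share of the precursor FPKM differed by 9.49 to 10.1 percentage points and the Oprl1 share of the receptor FPKM by 4.19 to 14.7. The cause of these changes was not tested. Oprm1, at 3 to 83 counts, gave no value with a filter of 1 CPM.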
